A study of Mus musculus with 22 samples.

Results

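Pcsk6 and its relatives, the proprotein convertases, were followed in urogenital sinus epithelium, which gives rise to prostatic buds in male mouse fetuses. The 7 genes considered were Pcsk6, Furin, Pcsk5, Pcsk7, Pcsk1, Pcsk2 and Mbtps1, and a gene was measured where the platform's annotation held a probe set with that gene as its only symbol. This found 6 of the 7, with 1 probe set each, of 30102 genes so measured in all. Pcsk2 was not analysed here. Of the 6, 5 passed the filter on dim probe sets and were among the 19050 genes tested, while Pcsk1 did not. Pcsk6 was chosen by its own values here, being lower in knockouts than in controls of both sexes, so its knockout differences are given as a description with no test. The other members were chosen as its family.

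Proprotein convertases are serine proteases related to bacterial subtilisin that cut precursor proteins in the secretory pathway, most of them after paired basic residues, and so turn inactive growth factors, receptors, proteases and hormones into active ones. Furin and PCSK7 are made by most cells, PCSK5 and PCSK6 (also called PACE4) are secreted and held at cell surfaces and matrix through heparan sulphate, and PCSK1 and PCSK2 work in the storage granules of neuroendocrine cells. MBTPS1, the site-1 protease, cuts after non-basic residues and releases the SREBP and ATF6 transcription factors from their membranes. In mouse embryos PCSK6 and furin are known for processing Nodal and its antagonists, and in human prostate cancer cells PCSK6 is known for its part in growth.

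The samples were C57BL/6J mouse fetuses at stage E16.75. Male knockouts (6 arrays) and female knockouts (5 arrays) had the genotype ShhCre/+; Sox9fl/fl, with 2 floxed Sox9 alleles and Cre recombinase made from 1 Shh allele, so that recombination is driven where Shh is expressed. Male controls (6 arrays) and female controls (5 arrays) were littermates without Cre and with 1 floxed Sox9 allele (Shh+/+; Sox9+/fl), so all animals shared a floxed allele and the presence of Cre, the altered Shh allele and the number of floxed alleles cannot be told apart. The labels call the replicates biological and do not say whether an array held 1 fetus or several, so p-values measure the spread between these arrays. All values are deposited log2 expression values from whole-transcript arrays, and a difference of 1 on this scale is a doubling. Levels of different genes come from different probes and are not set against each other.

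Sox9, the deleted gene, lay between 8.0 and 8.37 in male knockouts, against 9.05 to 9.61 in male controls, and between 7.81 and 7.99 in female knockouts, against 8.77 to 9.05 in female controls. Shh, at the Cre locus, was lower in the knockouts as well, by 0.45 in males and 0.56 in females. Where the Sox9 probes lie relative to the floxed exons was not known here. All 7 epithelial genes passed the filter and their mean lay between 11.16 and 11.34 on every array. This shows that epithelial genes were read on every array and does not measure the share of other cells. Of 10 mesenchyme genes measured, 9 passed the filter. Their mean was 6.71 to 7.15 in male knockouts, 6.75 to 6.95 in 5 male controls and 6.86 to 7.12 in females, but 7.94 in male control 6, whose smooth muscle and endothelial genes were raised too. Results that rest on male controls are therefore also given without that array where it changed a call, or moved a value of a tested convertase by over 1.5 times. Of 6 measured neuroendocrine and neural markers 5 passed the filter, with array means from 5.80 to 6.12, and of 4 blood and immune markers 3 did, with array means from 5.66 to 6.11. In whole tissue, fewer cells of a type and less RNA per cell cannot be told apart.

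The promoters of Pcsk6 and Pcsk5 are shown because these were the members with the clearest differences between groups, by genotype and by sex. Each line gives the 250 bases before the RefSeq transcript start of build GRCm38.p6, 5′ to 3′ on the gene's strand, with CG dinucleotides in capitals. The Pcsk6 window is chr7:65861886-65862135 on the plus strand and the Pcsk5 window chr19:17837633-17837882 on the minus strand.
Pcsk6: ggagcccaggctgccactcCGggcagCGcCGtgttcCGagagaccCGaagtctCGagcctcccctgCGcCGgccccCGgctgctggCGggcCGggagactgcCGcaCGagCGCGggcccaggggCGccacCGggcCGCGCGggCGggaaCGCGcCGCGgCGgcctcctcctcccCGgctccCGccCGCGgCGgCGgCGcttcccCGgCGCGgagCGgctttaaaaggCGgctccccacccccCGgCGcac
Pcsk5: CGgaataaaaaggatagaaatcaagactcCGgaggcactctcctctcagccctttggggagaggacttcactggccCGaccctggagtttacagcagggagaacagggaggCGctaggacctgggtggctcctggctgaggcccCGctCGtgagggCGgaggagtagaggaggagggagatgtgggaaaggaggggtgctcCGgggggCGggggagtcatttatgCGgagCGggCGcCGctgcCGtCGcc
The Pcsk6 window held 40 CG dinucleotides and 81.2% G and C, more than 99.1% of the 32851 mouse promoter windows in the table, whose median was 52.4%. The Pcsk5 window held 15 and 64.0%. Such a content was not particular to Pcsk6 in the family. It was 83.2% in a Furin window, 82.4% for Pcsk2 and 80.0% for Pcsk7, but 68.0% for Mbtps1, 50.4% in the other Furin window and 46.8% for Pcsk1. The core ACAAT, which SOX proteins are known to bind, or its reverse complement ATTGT was absent from all 8 promoter windows of the 7 genes and was present in 27.7% of all windows. That share is over windows of any G and C content, while the core is mostly A and T. Its absence says only that these letters are not in these windows.

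Pcsk6 was lower in the knockouts of each sex, on every array. In male knockouts its lowest, median and highest values were 6.47, 6.60 and 6.64, against 6.76, 6.90 and 7.00 in male controls. In female knockouts it read 6.68, 6.90, 6.72, 6.59 and 6.75, against 7.06, 7.24, 7.13, 7.03 and 7.02 in female controls. No knockout array reached the lowest control array of its own sex. The group means were 6.57 ± 0.08 (SD, n = 6) in male knockouts and 6.89 ± 0.11 (n = 6) in male controls, a log2 difference of -0.32 (SE 0.06) or 1.25-fold. They were 6.73 ± 0.11 (n = 5) in female knockouts and 7.10 ± 0.09 (n = 5) in female controls, a difference of -0.37 (SE 0.06) or 1.29-fold. These are the values that chose the gene. Over all genes tested, knockout arrays lay below control arrays without overlap for 0.236% in males, 0.619% in females and 0.0472% in both sexes.

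**Figure D1:**
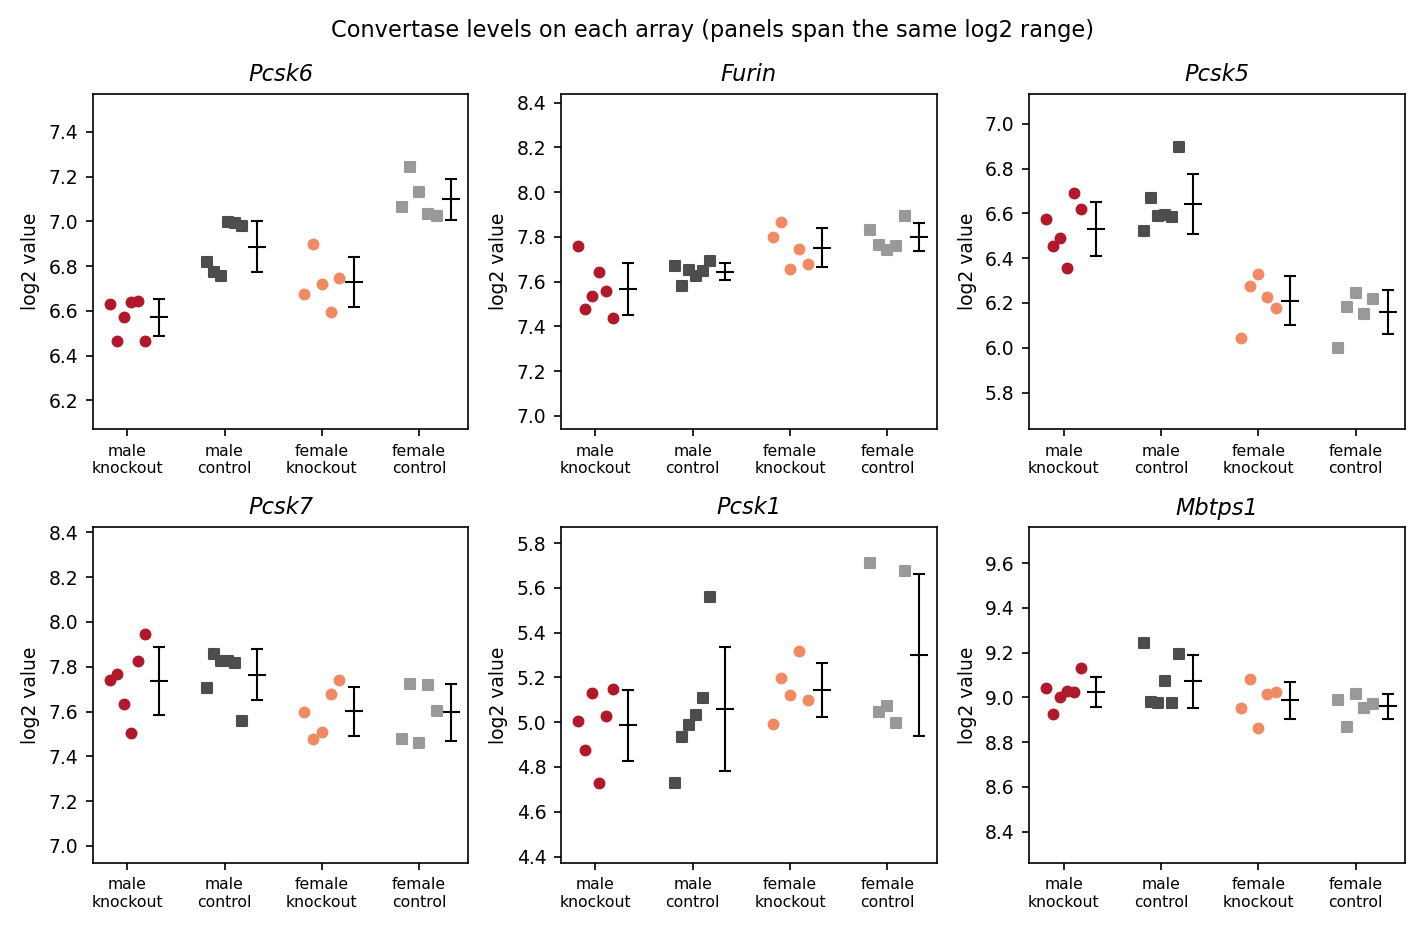
Log2 values of the 6 measured convertases on each of the 22 arrays, by group, with the group mean and SD as bars beside the points. Pcsk6 separates knockouts (circles) from controls (squares) within each sex, and Pcsk5 separates males from females.

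Averaged over the sexes the Pcsk6 difference was -0.34 (SE 0.04). The male effect minus the female effect was 0.05 (SE 0.09, 95% interval -0.13 to 0.24), given as a value since both effects had chosen the gene. Male control 6, the array with raised stromal genes, read 6.98 for Pcsk6, inside the range of the other male controls, and without it the male difference was -0.30. The array mean of the 5 urothelial genes, all uroplakins, was 10.74 to 11.35 in female knockouts and 10.44 to 11.03 in female controls. None of them passed the test in females, where 0.0315% of all genes did. An unadjusted p under 0.05 was reached by 4 of the 5, against 5.46% of all genes. The part of the urothelial genes in the female Pcsk6 difference was not tested.

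The 4 groups ranked for Pcsk6 as male knockouts, female knockouts, male controls and female controls, from low to high. Neighbours in this order overlapped, except that the lowest female control, 7.02, lay just above the highest male control, 7.00. Successive group means were 0.16, 0.16 and 0.21 apart.

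No other convertase passed the test for the knockout. The 4 other members tested gave 0 calls between knockouts and controls in males, 0 in females and 0 on the average of the sexes (limma, adjusted p of 0.05). In these comparisons 0.199%, 0.0315% and 0.247% of all genes were called. None of the 4 had an unadjusted p under 0.05 in any of these, against 6.27%, 5.46% and 7.19% of all genes. Knockout and control arrays overlapped for all 4 in each sex and were apart for 0.42% of all genes in males and 1.39% in females. A count of 0 of 4 does not stand apart from shares this small. The intervals of the differences limit what could have been missed, and they are given for each member below.

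Furin, the convertase of the trans-Golgi network, averaged 7.57 ± 0.12 in male knockouts and 7.64 ± 0.04 in male controls. The difference was -0.08 (95% interval -0.18 to 0.03). In females it averaged 7.75 ± 0.09 in knockouts and 7.80 ± 0.06 in controls, a difference of -0.05 (-0.16 to 0.07). Its knockout and control arrays overlapped in both sexes. Pcsk7, the most divergent of the basic-residue convertases, averaged 7.74 ± 0.15 in male knockouts and 7.76 ± 0.11 in male controls (difference -0.03, interval -0.18 to 0.12, and -0.07 without male control 6). In females the means were 7.60 ± 0.11 in knockouts and 7.60 ± 0.13 in controls, and the interval of the difference was -0.16 to 0.17.

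Pcsk5, the closest relative of Pcsk6 in domain structure, had male values of 6.53 ± 0.12 in knockouts and 6.64 ± 0.13 in controls. The difference of -0.11 (interval -0.25 to 0.03) was -0.06 without male control 6, which had the highest Pcsk5 value of all arrays, 6.90. In females the means were 6.21 ± 0.11 in knockouts and 6.16 ± 0.10 in controls (difference 0.05, interval -0.10 to 0.20). Mbtps1 averaged 9.03 ± 0.07 in male knockouts and 9.07 ± 0.12 in male controls (difference -0.05, interval -0.15 to 0.06, and -0.02 without male control 6), and 8.99 ± 0.08 in female knockouts and 8.96 ± 0.06 in female controls (0.03, interval -0.09 to 0.15). For these 4 genes the intervals left out a fall as large as the -0.32 and -0.37 of Pcsk6 in the same sex. Those Pcsk6 values chose the gene and come from another probe set. This is therefore no test of a difference between Pcsk6 and its relatives.

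Pcsk1, the convertase of neuroendocrine granules, was above the array median on 4 of 22 arrays. It lay between 4.73 and 5.15 in male knockouts, against 4.73 to 5.56 in male controls. In female knockouts it lay between 4.99 and 5.32, against 5.00 to 5.71 in female controls. The groups overlapped throughout. With no filter on dim probe sets its differences were -0.07 (SE 0.13) in males and -0.16 (SE 0.14) in females, with unadjusted p-values of 0.582 and 0.285.

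The difference between the male and the female effect of the knockout was tested for the same 4 genes, and 0 were called by limma, with 0 at an unadjusted p under 0.05 (4.04% of all genes). It was -0.03 for Furin, -0.16 for Pcsk5, -0.03 for Pcsk7 (-0.07 without male control 6) and -0.07 for Mbtps1, with SEs from 0.07 to 0.11. Over all genes 0.00525% were called, which is the 1 gene Gpr157, an orphan G protein-coupled receptor.

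**Figure D2:**
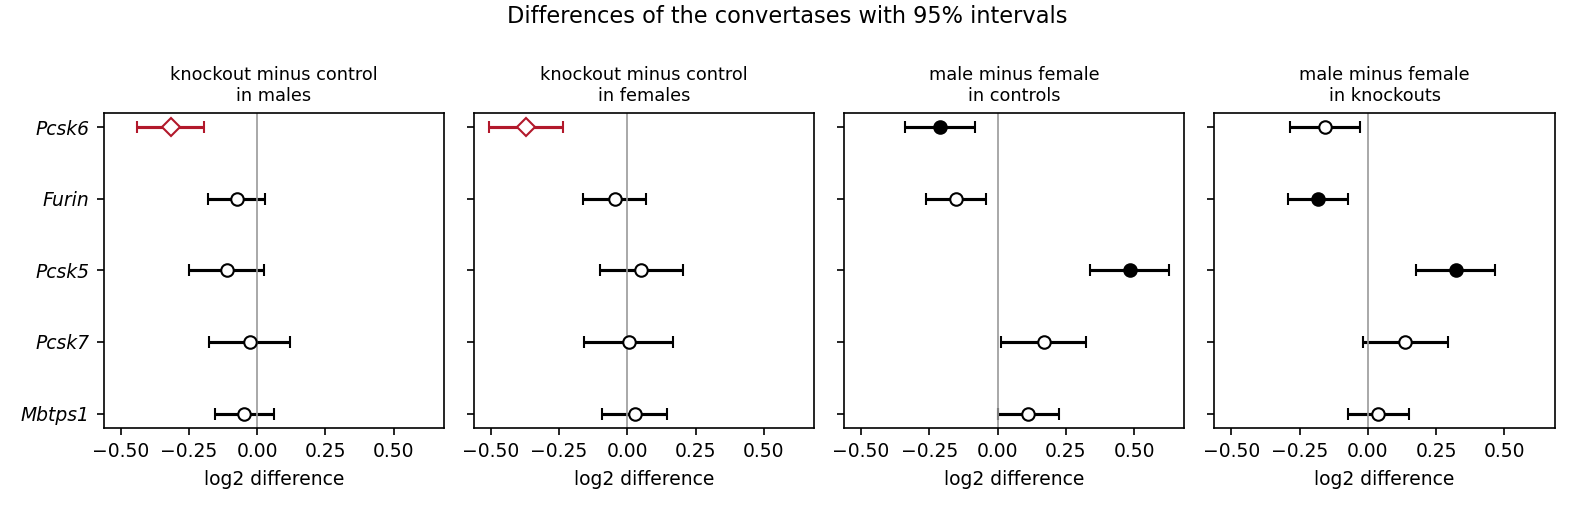
Log2 differences of the 5 tested convertases in 4 comparisons, with 95% intervals. Filled circles passed an adjusted p of 0.05, open circles did not, and the open red diamonds are the Pcsk6 differences that chose the gene and carry no test. Pcsk5 lies to the right in both comparisons of the sexes.

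Between the sexes Pcsk5 was higher in males in both genotypes, Pcsk6 was lower in control males and Furin was lower in knockout males. Males are known to begin forming prostatic buds around this stage and females are not. Differences between the sexes were not used to choose the genes, though the members were chosen with earlier results of these data known. The comparisons of the sexes also use the same control and knockout arrays as the knockout comparisons. The counts that follow are to be read with these limits. Of the 5 members tested, 2 were called between control sexes (Pcsk5 higher and Pcsk6 lower in males), where 6.94% of all genes were called, 3.27% higher and 3.67% lower. In knockouts 2 were called (Pcsk5 higher and Furin lower in males), where 7.19% of all genes were called, 3.66% higher and 3.52% lower. An unadjusted p under 0.05 was reached by 4 of 5 in controls and 3 of 5 in knockouts, against 19.1% and 17.2% of all genes. The arrays of the sexes did not overlap for 3 of 5 members in controls and 1 of 5 in knockouts, against 5.64% and 5.82% of all genes.

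Pcsk5 was higher in males in both genotypes. In controls its lowest, median and highest male values were 6.52, 6.59 and 6.90, and the female values were 6.00, 6.18, 6.24, 6.15 and 6.22. In knockouts the male values were 6.36, 6.53 and 6.69, and the female values 6.04, 6.28, 6.33, 6.23 and 6.18. Every male array lay above every female array of its genotype. The log2 difference was 0.48 (SE 0.07, limma adjusted p = 5.8e-05) or 1.40-fold in controls and 0.32 (SE 0.07, adjusted p = 0.00395) or 1.25-fold in knockouts. Without male control 6 the control difference was 0.43 (adjusted p = 0.000107). The mean of the mesenchyme genes was 6.75 to 6.95 in the other male controls and 6.90 to 7.12 in female controls, so it was mostly lower in control males with a small overlap. In knockouts it was 6.71 to 7.15 in males and 6.86 to 6.99 in females, and the female range lay inside the male range. Its part in the differences of Pcsk5 and Pcsk6 between the sexes was not tested.

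**Figure D3:**
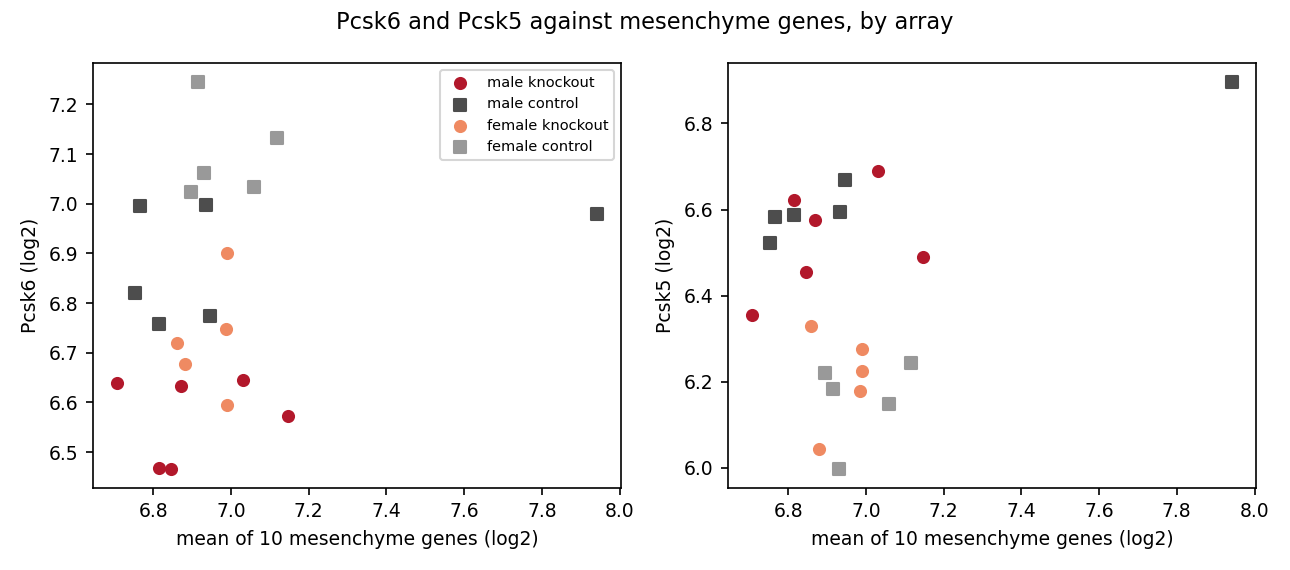
Pcsk6 and Pcsk5 on each array against the array's mean of 10 mesenchyme genes, all on the log2 scale. Male control 6 stands alone at 7.94 on the x axis, with the highest Pcsk5 value of 6.90 and a Pcsk6 value of 6.98 within its group.

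Pcsk6 ran the other way and was lower in males. In controls the male mean of 6.89 lay 0.21 below the female mean of 7.10 (log2 difference -0.21, SE 0.06, limma adjusted p = 0.0397), with no overlap of arrays. In knockouts the male mean of 6.57 and the female mean of 6.73 differed by -0.16 (SE 0.06, adjusted p = 0.159), and the arrays overlapped. The control call was lost without any of male controls 1, 2 and 3 or female controls 1, 2 and 3, where the difference was -0.18 to -0.22 and the adjusted p 0.0626 to 0.134, and it was also lost without the filter (adjusted p = 0.0596) and with only control arrays in the model (adjusted p = 0.0782). Sox9 had the opposite sign: it was higher in males, by 0.44 in controls (SE 0.09, adjusted p = 0.00159) and by 0.37 in knockouts (SE 0.09, adjusted p = 0.00703). Pcsk6 was thus lower in control males, where Sox9 was higher, by a call that many settings lost. It was also lower in knockouts, where Sox9 was lower, and that difference had chosen the gene. Over the 22 arrays the Pearson r of Pcsk6 with Sox9 was 0.605, and 0.374 once each group mean was subtracted. The difference that chose Pcsk6 enters the first value, since Sox9 was lower in the same knockouts, and the arrays fall into 4 groups. Whether the level of Sox9 bears on Pcsk6 was not tested.

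Furin was lower in males as well. In knockouts the lowest, median and highest male values were 7.44, 7.55 and 7.76, and the female values were 7.80, 7.87, 7.66, 7.75 and 7.68, so the arrays overlapped. The difference was -0.18 (SE 0.05, adjusted p = 0.0360). In controls male arrays lay between 7.58 and 7.69 and female arrays between 7.74 and 7.89 with no overlap, yet the difference of -0.15 (SE 0.05) had an adjusted p of 0.0872. With quantile normalization the control difference was -0.17 with an adjusted p of 0.0380, and without male knockout 1 the adjusted p was 0.0479. The knockout call was lost without any of male knockouts 2, 3, 5 and 6 or female knockouts 1, 2 and 4 (difference -0.15 to -0.18, adjusted p 0.0647 to 0.125), without the filter (adjusted p = 0.0553) and with only knockout arrays in the model (adjusted p = 0.130).

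Pcsk7 and Mbtps1 were not called between the sexes. Pcsk7 had male minus female differences of 0.17 in controls (SE 0.08, adjusted p = 0.213) and 0.14 in knockouts (SE 0.08, adjusted p = 0.386). Those of Mbtps1 were 0.11 (SE 0.05, adjusted p = 0.265) and 0.04 (SE 0.05, adjusted p = 0.838). The arrays of the sexes overlapped for both genes in both genotypes. For Pcsk1, without the filter, the differences were -0.24 in controls (SE 0.14) and -0.16 in knockouts (SE 0.14), with adjusted p-values of 0.447 and 0.797 over 30102 genes.

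The genes that convertases act on or with were described through 11 lists with 122 entries, of which 106 had a probe set of their own and 97 were tested. The lists were chosen with earlier results of these data known. Shares in the lists above those of all genes, here and between the sexes below, are therefore a description and no test of enrichment. Between knockouts and controls, 1 of the 97 was called in males (1.03%, against 0.199% of all genes) and 0 in females (against 0.0315%). On the average of the sexes 1 was called (1.03%, against 0.247%). An unadjusted p under 0.05 was reached by 9 of 97 in males (9.28%, against 6.27% of all genes), 7 in females (7.22%, against 5.46%) and 14 on the average (14.4%, against 7.19%). Adamts9, a secreted protease that cleaves versican and whose propeptide is removed by furin-like enzymes, was the call in males and on the average. It read 6.41, 6.51 and 6.62 (lowest, median and highest) in male knockouts, against 6.95, 7.23 and 7.80 in male controls. The difference was -0.80 (SE 0.14, limma adjusted p = 0.00705), and -0.70 (adjusted p = 0.0230) without male control 6, its highest array. In females it was -0.38 (SE 0.15, adjusted p = 0.871), with overlapping arrays. The 14 other metalloproteases tested were not called, and the median of the 15 was -0.11 in males and -0.02 in females. Smooth muscle genes, of which none of 6 was called, had array means of 5.48 to 6.04 in male knockouts and 5.54 to 5.79 in male controls 1 to 5, and their part in the Adamts9 difference was not tested.

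The lists for convertase inhibitors, chaperones and sorting proteins (5 tested), carboxypeptidases and amidation (5), TGF-beta family precursors (16), other growth factor precursors (8), receptor and integrin precursors (9), neuroendocrine prohormones (10), the site-1 protease pathway (12), sterol and lipid targets of SREBP (10) and endoplasmic reticulum stress targets (6) held 0 calls for the knockout in either sex. Their median log2 differences lay between -0.06 and 0.05 in males and between -0.11 and 0.05 in females, where the median of all genes was 0.01 in each. Pcsk4, the germ cell convertase and the single gene tested of the other family members, differed by 0.03 in males and -0.04 in females. The granule protein gene Scg2 (0.29 in females, SE 0.08, adjusted p = 0.501) and the receptor gene Notch1 (-0.31 in females, SE 0.10, adjusted p = 0.640) had the smallest p-values of their lists there. Insig2 and Creb3l4, an SREBP retention factor and a membrane-bound transcription factor cut by MBTPS1, had those of the site-1 protease pathway in males (-0.19 and -0.25, adjusted p = 0.365 and 0.441).

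**Figure D4:**
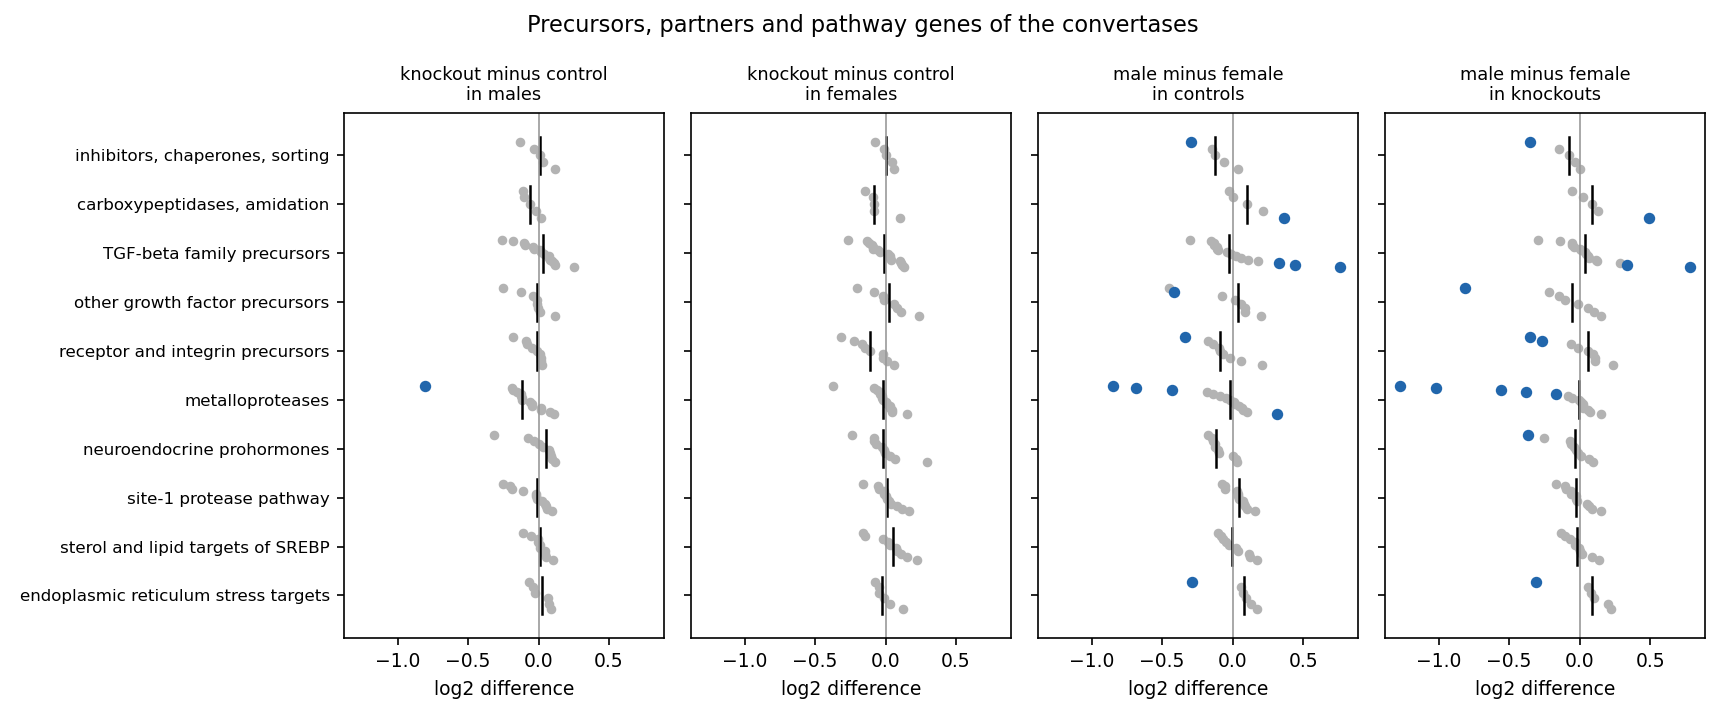
Log2 differences of the tested genes of 10 lists in 4 comparisons. Each point is a gene, blue where it passed an adjusted p of 0.05, and the black bar is the list's median. After the knockout 1 point is blue, Adamts9 in males, while between the sexes 12 are blue in controls and 14 in knockouts.

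Between the sexes 12 of the 97 genes were called in controls (12.4%, against 6.94% of all genes), 5 higher and 7 lower in males. In knockouts 14 were called (14.4%, against 7.19%), 3 higher and 11 lower. The arrays of these comparisons are not shared, but each gene's spread was estimated from all 22 arrays for both, so their calls are not independent. In both, 9 genes were called, 75% of the control calls and 64.3% of the knockout calls, all with the same sign. Over all genes 810 were called in both, 61.3% of the control calls and 59.2% of the knockout calls, 809 of them with the same sign. Without male control 6 the controls gave 12 calls again, 4 higher and 8 lower.

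Among precursors of the TGF-beta family, Bmp2 and Bmp4, ligands cut by convertases before secretion, were higher in males. Bmp2 averaged 7.00 ± 0.28 in male and 6.24 ± 0.24 in female controls (difference 0.76, SE 0.14, adjusted p = 0.00122), and 6.89 ± 0.28 in male and 6.11 ± 0.23 in female knockouts (0.78, SE 0.14, adjusted p = 0.000795). Bmp4 differed by 0.44 in controls and 0.33 in knockouts (SE 0.09 each, adjusted p = 0.00145 and 0.0149). Tgfb2 was called in controls alone (0.33, adjusted p = 0.0262), and the other 13 of the 16 genes in controls and 14 in knockouts were not called. The called shares of this list were 18.8% in controls and 12.5% in knockouts, against 6.94% and 7.19% of all genes. Without male control 6, where Tgfb3 stood far above the other male controls, Tgfb3 was called as lower in males (-0.53, adjusted p = 0.00325, against -0.30 and 0.429 with it).

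The metalloproteases made from precursors that convertases activate held the largest single sex differences of these lists, while the list as a whole was centred near 0. Of 15 tested, 8 had a negative male minus female difference in each genotype, and the median was -0.017 in controls and -0.001 in knockouts, where all genes had -0.013 and -0.012. In the test, 1 was higher and 3 were lower in control males (26.7% called, against 6.94% of all genes). In knockout males 5 were lower (33.3% called, against 7.19% of all genes). Adamts5, an aggrecan-degrading protease, averaged 5.95 ± 0.17 in male and 6.63 ± 0.18 in female controls (-0.68, SE 0.10, adjusted p = 0.000114), and 5.76 ± 0.21 in male and 6.78 ± 0.17 in female knockouts (-1.02, SE 0.10, adjusted p = 5.39e-07). Adamts9 differed by -0.85 in controls (adjusted p = 0.000425) and by -1.28 in knockouts (adjusted p = 2.33e-06), and Adamts1 by -0.43 and -0.56 (adjusted p = 0.00446 and 0.000305). In knockouts Mmp11, a stromelysin activated by furin, and Bmp1, the procollagen C-proteinase, were also lower in males (-0.38 and -0.17, adjusted p = 0.000644 and 0.0350). Mmp16, a membrane-bound metalloprotease, was the gene higher in control males (0.31, adjusted p = 0.0432), a call lost without male control 6 (0.26, adjusted p = 0.105).

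Of other growth factor precursors, Pdgfb was lower in control males (-0.42, adjusted p = 0.00111) and Igf1 in knockout males (-0.81, adjusted p = 0.000737). Igf1 was also called in controls without male control 6 (-0.55, adjusted p = 0.0170, against -0.45 and 0.0694 with it). Among receptor and integrin precursors Itga5, a fibronectin receptor subunit, was lower in males in both genotypes (-0.34 and -0.35, adjusted p = 0.0384 and 0.0284), and Itga6, a laminin receptor subunit, in knockouts (-0.27, adjusted p = 0.0200). Cpm, a carboxypeptidase that trims basic residues, was higher in males in both (0.36 and 0.49, adjusted p = 0.00772 and 0.000368).

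Serpinb8, a serpin whose human counterpart inhibits furin, was lower in males in controls (-0.29, adjusted p = 0.0324) and knockouts (-0.35, adjusted p = 0.00876). The same held for the stress gene Ddit3 (-0.29 and -0.31, adjusted p = 0.0341 and 0.0207). Both control calls were lost without male control 6 (adjusted p = 0.0619 for Serpinb8 and 0.0762 for Ddit3). Among the prohormone and granule genes Scg2 alone was called, as lower in knockout males (-0.37, adjusted p = 0.00214), and without male control 6 Penk, the enkephalin precursor, was called as lower in control males (-0.32, adjusted p = 0.0319, against -0.17 and 0.513 with it). The site-1 protease pathway and the SREBP targets held 0 calls between the sexes in either genotype, with 1 and 0 at an unadjusted p under 0.05 in controls and 1 and 1 in knockouts. Of the cell type markers, 1 of 9 mesenchyme genes (11.1%, Dcn lower in males, -0.36) and 1 of 7 epithelial genes (14.3%, Krt18 lower, -0.28) were called in controls, where 6.94% of all genes were. The Krt18 call was lost without male control 6, where 0 of 7 epithelial genes were called in controls. In knockouts, where 7.19% of all genes were called, the calls were 1 of 9 mesenchyme genes (Lum higher in males, 0.57) and 3 of 7 epithelial genes (42.9%), namely Krt8 and Krt18 lower (-0.21 and -0.34) and Foxa1 higher (0.22). None of 6 smooth muscle genes was called in either genotype. Their part in the sex differences was not tested.

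The genes whose levels over the 22 arrays were most like those of Pcsk6 were Cdc42ep1 (Pearson r = 0.904), Col14a1 (0.854), Fndc1 (0.850), Car13 (0.847) and Mfge8 (0.831), among 14076 genes with a proper name. These values describe arrays that fall into 4 groups and so mostly restate the group means, and the knockout difference that chose Pcsk6 enters them. Cdc42ep1, an effector of the small GTPase Cdc42, averaged 7.72 ± 0.14 in male knockouts, 8.09 ± 0.11 in male controls, 7.96 ± 0.09 in female knockouts and 8.34 ± 0.11 in female controls, the same order of groups as Pcsk6. Once each group mean was subtracted, the most alike were Pacc1 (0.760), Sumf2 (0.754), Chchd6 (0.749), Tubb6 (0.746) and Lysmd2 (0.737), none of them among the first 5.

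**Figure D5:**
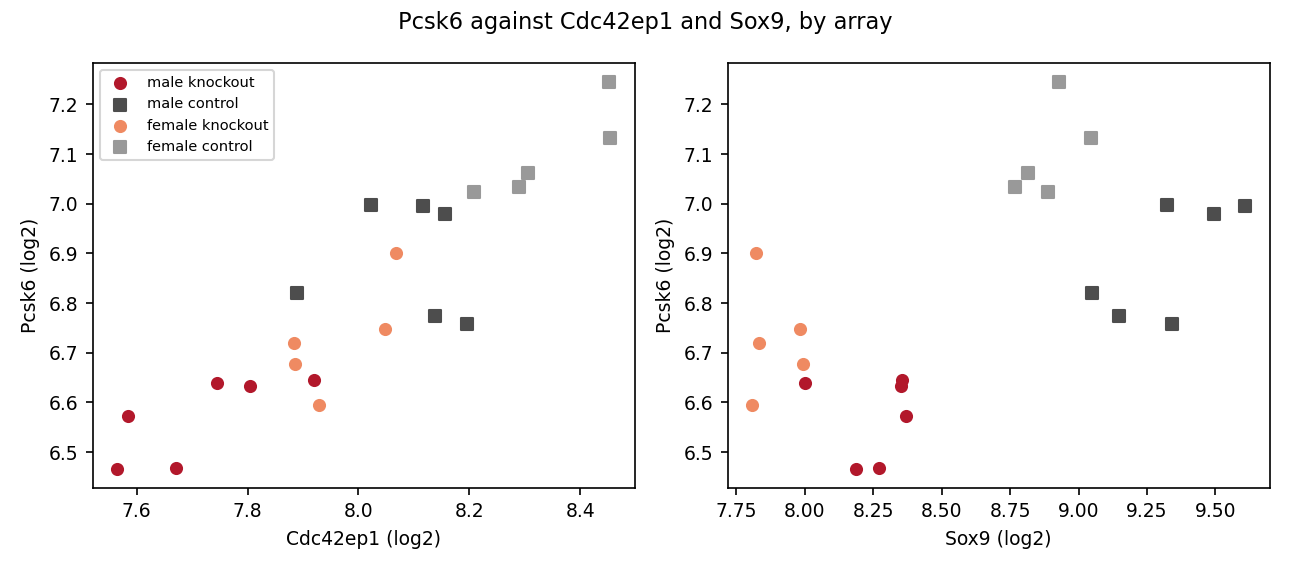
Pcsk6 on each array against Cdc42ep1 (left) and Sox9 (right), on the log2 scale. Pcsk6 and Cdc42ep1 order the 4 groups alike. Female controls (light squares) have the highest Pcsk6 values at lower Sox9 values than male controls (dark squares), while the Pearson r with Sox9 over all arrays is 0.605. The knockout difference that chose Pcsk6 enters that value.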

How the data were processed

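RNA from urogenital sinus epithelium of 22 fetuses or pools of them was measured on Affymetrix whole-transcript arrays after trypsin and collagenase digestion and removal of mesenchyme, bladder and urethral epithelium, per the labels' protocols. The authors deposited log2 values of 72688 probe sets. That they are log2 was read from their range, 1.59 to 14.23. How they were background-corrected, normalized and summarized is not given in the sources used here. Medians of the arrays lay between 5.10 and 5.27, and no further scaling was applied.

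Probe sets with exactly 1 symbol (30604, with 827 symbols updated by gene identifier) were kept above the array's 50th percentile of transcript clusters on at least 5 arrays, and the probe set of highest mean stood for a gene. limma 3.58.1 (R 4.3.3) fitted 4 group means to all 22 arrays (18 residual and 4.34 prior degrees of freedom), and p-values were adjusted by Benjamini-Hochberg over 19050 genes, with calls under 0.05. No batch or litter was labelled. Replicate numbers did not pair arrays: deviations of same-numbered arrays correlated at -0.21 to 0.11 between male knockouts and controls, at -0.16 to 0.13 in females, at -0.13 to 0.09 between male and female controls, and at 0.01 to 0.25 between male and female knockouts, where 1 of 5 was over 0.1. The median SE of a knockout difference was 0.065 in males and 0.071 in females, and the number of arrays limits this precision.

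The members, the lists and the markers were chosen with earlier results of these data known. Named genes were the members, Sox9 and Shh, list genes that were called or had the smallest p, and the 5 most like Pcsk6 by each measure. Genes named for a call made only without male control 6, called marker genes and Gpr157 were chosen after their values were seen. The program was tested on simulated data. Promoter sequences are from RefSeq, build GRCm38.p6, and all 7 members matched. No build was named with the arrays. Python 3.11.15 and matplotlib 3.10.9 drew the figures.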

Additional observations from a re-analysis of the deposited data

Results flagged for a closer look

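The arrays of each group were checked for each gene named here and for the mesenchyme, smooth muscle, endothelium, urothelium and epithelium means. The neuroendocrine and neural list and the blood and immune list were not checked. Among these 212 sets of arrays, 16 held an array whose gap to the nearest other array was large for the group's range, where chance flags about 5%. None of them concerned Pcsk6, Furin, Pcsk5, Pcsk7, Pcsk1 or Mbtps1. Pcsk4 read 7.11 in male knockout 3 and 7.18 in male control 4, against at most 6.92 and 6.93 in the other arrays of those groups. In male knockouts Mmp11 read 8.95 in replicate 4 (others at most 8.71), Bmp2 7.44 in replicate 1 (others at most 6.90), and Bmp4 6.66 in replicate 2 (others at least 6.79). Penk read 6.58 in female control 1 (others at least 6.81).

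Male control 6 was high in Tgfb3 (8.64, others at most 7.38), Itga5 (7.72, others at most 7.22) and Col14a1 (8.19, others at most 7.16). Its marker means were 7.94 for mesenchyme (others at most 6.95), 7.11 for smooth muscle (others at most 5.79) and 5.42 for endothelium (others at most 4.65). The smooth muscle mean was 6.04 in male knockout 5 (others at most 5.65), and the epithelial mean was 11.30 in male knockout 4 (others at most 11.24). In that array Krt8 read 12.15 (others at most 11.93) and Krt18 12.29 (others at most 11.95).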

How the results depend on the processing

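The Pcsk6 differences between knockouts and controls had chosen the gene. They kept their sign and moved by less than the spread between arrays under every alternative run. Over the 22 left-out arrays they ranged from -0.34 to -0.30 in males, -0.41 to -0.33 in females and -0.37 to -0.33 on the average. Each knockout array read below all controls of its sex, so leaving an array out could not reverse the sign. The kept sign is there no test, and those ranges show only how far the size moved. Pcsk5 kept its sex calls wherever it was tested (0.43 to 0.51 in controls and 0.28 to 0.36 in knockouts with an array left out), and the filter at the 75th percentile removed it. The Pcsk6 sex call in controls was lost without the filter, with only the compared arrays (-0.21 in each) and with the replicate block (-0.21, adjusted p = 0.105), and ranged from -0.23 to -0.18 with an array left out. The Furin sex call in knockouts was lost under the same 3 settings (-0.18, -0.18 and, with the block, -0.17, adjusted p = 0.0824) and ranged from -0.22 to -0.15. Counts over all genes with only the compared arrays were 20 in males (38 in the model of all groups) and 3 in females (6). The male count ran from 27 to 49 with an array left out. The female count ran from 2 to 8, being 2 without female controls 3 or 5 or female knockout 4 and 3 without male knockout 3, female control 1 or female knockouts 1 or 3. For the difference between the sexes' knockout effects, where 1 gene was called, the count was 0 without the filter or with trend and robust options, 2 with the replicate block, and 0 to 2 with an array left out (2 without female control 3). The uncalled Mbtps1 difference in males ran from -0.068 to -0.013 with an array left out. Other uncalled differences near 0 changed sign: Pcsk7 in females was -0.0067 with quantile normalization, and with arrays left out Pcsk7 ran from -0.070 to 0.018 in males, -0.030 to 0.036 in females, -0.032 to 0.012 on the average and -0.074 to 0.014 between the sexes' effects, Mbtps1 on the average from -0.022 to 0.0068, and Furin between the sexes' effects from -0.066 to 0.0010. The cause was not tested. The block rests on replicate numbers that did not pair the arrays. The number of arrays limits what could be detected, and Pcsk1 is limited by a signal near the array median.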
